A study of Bos taurus with 15 samples.

Results

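The genes described here code for centrosome proteins and for 2 kinase families that act with them, the NEK kinases (NIMA-related kinases) and the polo-like kinases (PLK). They were chosen by gene symbol: every CEP gene with a number, every numbered NEK, PLK1 to PLK5, every TUBGCP gene, and PCNT, CDK5RAP2, NEDD1, PCM1 and NIN. The rule found 60 of the 24616 genes in the deposited table, namely 35 CEP genes, 11 NEK genes, 4 PLK genes, 5 TUBGCP genes and the 5 single genes. A filter on low counts (edgeR's filterByExpr) left 50 of the 60 for testing, among 8441 genes tested in all.

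The study measured RNA in cattle (Bos taurus) oocytes, comparing fresh oocytes with oocytes cooled to a glass-like state (vitrified) at different coolants and cryoprotectant strengths. There were 15 libraries in 5 groups of 3: fresh, liquid helium with 5.6 M or 6.6 M cryoprotective agent, and liquid nitrogen with 5.6 M or 6.6 M. Oocytes of all groups, the fresh one included, had spent 22 to 24 h in maturation medium at 38.5 °C and were then stripped of cumulus cells with hyaluronidase, and cDNA was amplified from single-cell extracts. The samples are labelled as IVM (in vitro matured) oocytes, while the title of the series has the word immature, and breed, age and donors are not given in the labels. Libraries carry the replicate numbers of the labels, which run from 3 to 5 in the helium 5.6 M group. No label ties a replicate to its own animal or culture, so the p-values rest on library-to-library spread that may be technical only.

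A centrosome is a pair of centrioles in a matrix of scaffold proteins, and that matrix binds the gamma-tubulin ring complex, from which microtubules grow. PLK4 starts centriole duplication, PLK1 drives growth of the matrix and entry into division, and NEK2 loosens the linker that holds centrosomes together. Mammalian oocytes lose their centrioles during growth and build the meiotic spindle from matrix proteins gathered into other organizing centres. Their transcripts are largely made before maturation and stored, so a transcript level in a matured oocyte does not give the rate of synthesis.

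Library totals ranged from 1601519 to 8569618 counts and differed by group: all 6 helium libraries and 1 nitrogen 6.6 M library (library 3) held more than 5000000 counts, and the other 8 held fewer. Of 10 oocyte marker genes, 8 were in the table, all with counts in every group. Their summed level in CPM (counts scaled to a library of 1e6) was 3238 to 5711 in fresh, 5351 to 6416 in helium and 4098 to 5361 in nitrogen libraries. The summed level of cumulus markers was 571 CPM in helium 6.6 M library 2 against 306 to 457 in the other 14. Counts were found for 11 of 15 such genes in the fresh group and in each nitrogen group, and for 14 in each of the deeper helium groups. FSHR was at 0 throughout. The other genes at 0 in fresh, AMH, LUM and CYP11A1, had 9, 47 and 60 counts over all libraries. The part of depth in this was not tested. Single genes of that list differed more than the sum: TIMP1 was at 0 to 1.25 CPM in fresh, 0 to 129.6 CPM in helium and 0 to 2.52 CPM in nitrogen libraries, and TNFAIP6 at 0 to 1.82, 0 to 30.8 and 0 to 0.873 CPM. Both genes were singled out after their values were seen, and their part in the results was not tested. TIMP1 at 129.6 CPM and TNFAIP6 at 30.8 CPM in helium 6.6 M library 2 were part of its sum of 571 CPM. STAR and HAS2, the genes of the list with the most counts, had lower means in both helium groups than in fresh. STAR was at 192 CPM in fresh and at 163 and 171 CPM in helium 5.6 M and 6.6 M. HAS2 was at 120, 99.1 and 96.2 CPM in the same order. SERPINE2 and VCAN had higher means in both helium groups. Sums of blood and immune markers were 0 to 7.96 CPM, with HBB, CD14 and CD74 at 0. The labels do not say how many oocytes a library held, and fewer cells of a type and less RNA per cell cannot be told apart in these values.

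Of the 60 genes, 59 had at least 1 count and 49 had counts in all 15 libraries. Together they took 0.467 to 0.605% of the counts of a library, and 0.520 to 0.568% in the fresh libraries, which lies within that range. Levels per length are given as FPKM, the deposited fragments per kilobase of gene, scaled to library size, averaged over the 15 libraries. By this measure 5 genes exceeded 100 FPKM, 30 exceeded 10, and 12 stayed under 1. The median of the 50 tested genes was 17.3 FPKM against 11.8 for all genes tested, and 29 of the 50 lay above that value.

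**Figure D1:**
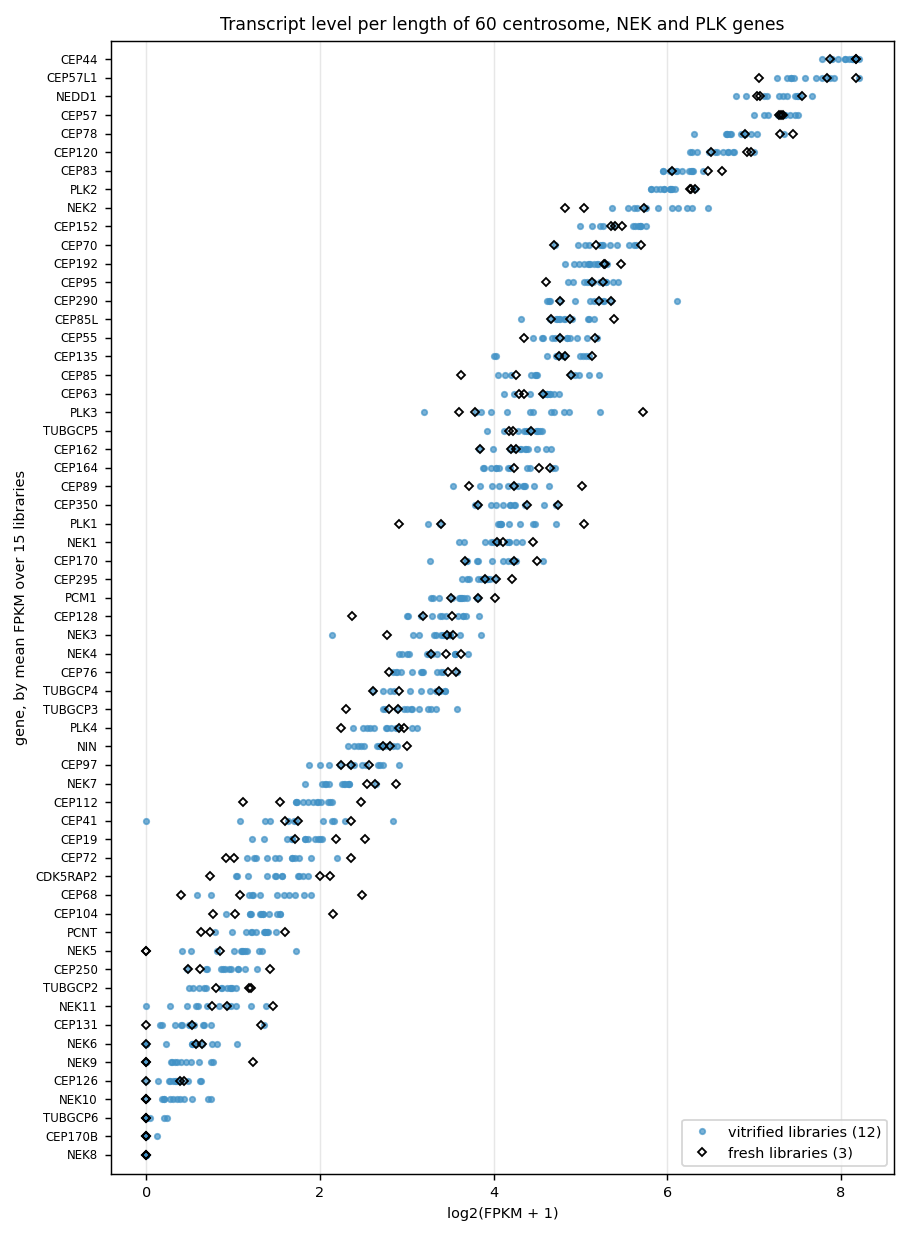
Level per length of each of the 60 genes, as log2(FPKM + 1) on the x axis, ordered by mean FPKM; circles are the 12 vitrified libraries and diamonds the 3 fresh ones. CEP44, at a mean of 265 FPKM, lies at the top and NEK8, with no count, at the bottom.

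The polo-like kinases were all detected. PLK2, a kinase linked to stress responses and centriole duplication, had the highest mean level per length at 65.9 FPKM, followed by PLK3, also linked to stress, at 21.6 FPKM. PLK1 had a mean of 16.6 FPKM and PLK4 of 5.76 FPKM. On the scale of TMM-scaled CPM, which corrects library totals by the trimmed mean of M-values and serves for comparisons of 1 gene between libraries, PLK2 was at 233, 173 and 251 in fresh libraries 1 to 3. It was at 167, 164 and 165 in helium 5.6 M, 152, 196 and 160 in helium 6.6 M, 178, 184 and 193 in nitrogen 5.6 M, and 179, 162 and 184 in nitrogen 6.6 M. Fresh libraries 1 and 3 lay above all 12 vitrified ones and fresh library 2 lay among them.

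PLK1 and PLK3 set fresh library 2 apart from the other fresh libraries. PLK1 was at 22.0, 57.3 and 16.9 CPM in fresh libraries 1 to 3 and at 36.0 ± 9.08 (SD, n = 12) in vitrified libraries. PLK3 was at 28.0, 101 and 35.8 CPM in the fresh libraries and at 48.1 ± 16.6 (SD, n = 12) in vitrified ones. In both genes fresh library 2 was the highest of the 15 and the vitrified libraries overlapped the other fresh ones. PLK4 was at 20.8 ± 9.07 CPM (SD, n = 3) in fresh and 19.9 ± 3.85 (SD, n = 12) in vitrified libraries.

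Among the NEK kinases, NEK2 led at a mean of 55.4 FPKM. NEK1, known for roles in cilia and DNA damage responses, followed at 15.9 FPKM, then NEK3 at 9.17, NEK4 at 9.11, NEK7 at 4.04 and NEK5 at 0.966 FPKM. NEK7 acts with NEK6 and NEK9 in a mitotic kinase cascade that supports spindle assembly, and the other members of that cascade were low, NEK6 at 0.407 and NEK9 at 0.356 FPKM. Neither passed the filter on low counts, nor did NEK11 at 0.812 and NEK10 at 0.239 FPKM. NEK8, a ciliary kinase, had 0 of 68098630 counts over all libraries, which allows a level of up to 0.0441 CPM by counting error only. NEK3 and NEK5 lie 8.51 kb apart on chromosome 12, and use of the strand in counting is not given in the sources used here.

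The gamma-tubulin ring complex was represented mainly by its recruiting factor and 3 of its 5 numbered members. NEDD1, which brings the complex to the spindle, had a mean of 158 FPKM, the third highest of the 60. TUBGCP5 was at 19.6, TUBGCP4 at 7.69 and TUBGCP3 at 7.17 FPKM. TUBGCP2, a core subunit beside TUBGCP3, was at 0.825 FPKM and TUBGCP6 had 8 counts in all libraries together, and neither passed the filter. TUBGCP5 was at 64.2 ± 5.65 CPM (SD, n = 3) in fresh libraries, and its lowest value of all was 43.8 CPM in helium 6.6 M library 2.

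Scaffold transcripts were unequal in level. CEP192, which recruits PLK1 and gamma-tubulin to the matrix, had a mean of 34.7 FPKM, whereas the large scaffolds PCNT and CDK5RAP2 were at 1.33 and 1.96 FPKM. PCNT was at 5.34, 15.1 and 7.16 CPM in fresh libraries 1 to 3, so that fresh library 2 lay within the range of the 6 helium libraries and the other fresh libraries lay below them. CEP290, a transition zone and satellite protein, averaged 34.5 FPKM and was at 679 CPM in nitrogen 6.6 M library 3 against 209.6 to 415 in the other libraries. PCM1, the core protein of centriolar satellites, was at 104, 54.8 and 99.9 CPM in the fresh libraries and overlapped with each vitrified group.

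Genes of centriole assembly were all detected. CEP120, needed for centriole elongation, had a mean of 99.3 FPKM, and CEP152, which recruits PLK4, of 43.6 FPKM. The 7 genes of this role had a median of 22.0 FPKM and all passed the filter. Among linker and appendage genes the distal appendage protein CEP83 led at 73.4 FPKM, while CEP250, the linker protein that NEK2 acts on, was at 0.897 FPKM.

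CEP44, which acts in turning a new centriole into a centrosome, had the highest mean level of the 60 at 265 FPKM. CEP57L1 was at 207 and CEP57, a matrix protein to which it is related, at 157 FPKM. CEP78, a centriole wall protein, was at 121 FPKM. CEP70, at 37.8 FPKM, completed the 10 highest genes that are neither kinases nor TUBGCP genes, beside NEDD1, CEP120, CEP83, CEP152 and CEP192 given above.

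Against fresh oocytes, 1 of the 50 tested genes changed in helium 5.6 M: NEK2 rose. Called means an edgeR quasi-likelihood p under 0.05 after Benjamini-Hochberg adjustment across all 8441 genes, and 0.474% of all genes were called in this comparison. NEK2 (ENSBTAG00000009618) lies on chromosome 16 from 73674452 to 73683624 of build UMD3.1. It was at 42.1, 62.3 and 54.8 CPM in fresh libraries 1 to 3 and at 117, 103 and 97.5 CPM in helium 5.6 M libraries 3 to 5. The 2 groups did not overlap. The log2 fold change was 0.99 (SE 0.21, edgeR adjusted p = 0.0402). A replicate block in the fit of all groups gave a log2 fold change of 1.18 and an adjusted p of 0.940, although helium 5.6 M and fresh share only the number 3.

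NEK2 was also measured at 111, 68.1 and 96.7 CPM in helium 6.6 M libraries 1 to 3. It was at 70.3, 71.4 and 60.4 CPM in nitrogen 5.6 M and at 84.9, 80.8 and 71.4 CPM in nitrogen 6.6 M. Every vitrified library except nitrogen 5.6 M library 3 lay above the highest fresh library. The log2 fold change against fresh was 0.78 (SE 0.21, edgeR adjusted p = 0.0787) in helium 6.6 M and 0.56 (SE 0.21, adjusted p = 0.426) in nitrogen 6.6 M. It was 0.34 (SE 0.21, adjusted p = 0.805) in nitrogen 5.6 M, and none of these 3 passed the threshold. These comparisons and that with helium 5.6 M share the same 3 fresh libraries. Beside these values, the cumulus gene TIMP1 was at 11.3, 0.936 and 12.9 CPM in helium 5.6 M libraries 3 to 5 and at 0, 129.6 and 6.68 CPM in helium 6.6 M libraries 1 to 3. In helium 6.6 M the library without TIMP1 held the most NEK2, 111 CPM, and the library with the most TIMP1 held the least, 68.1 CPM. In helium 5.6 M the most NEK2, 117 CPM, was in library 3, at 11.3 CPM of TIMP1. The library with the least TIMP1 in that group held 103 CPM of NEK2, and library 5, with the most TIMP1, held less. A relation between these genes was not tested.

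**Figure D2:**
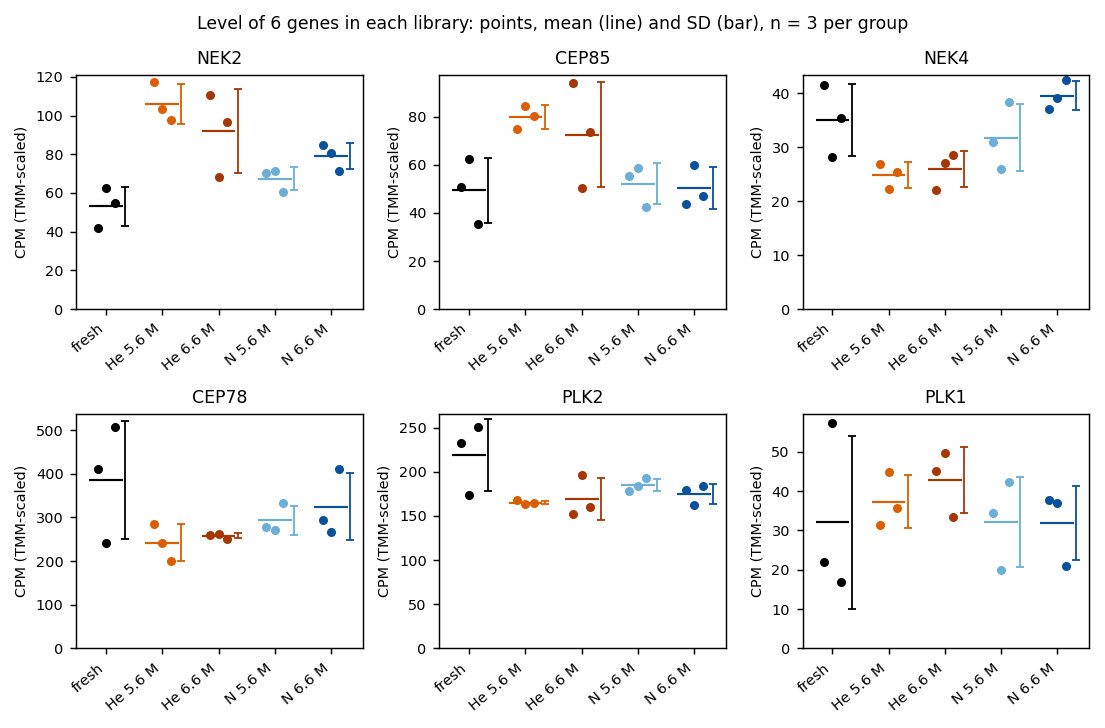
Level of 6 genes in each of the 15 libraries, as TMM-scaled CPM from 0 on the y axis, by group on the x axis; points are libraries, lines the group mean and bars the SD (n = 3). NEK2 is at 97.5 to 117 CPM in helium 5.6 M and at 42.1 to 62.3 CPM in fresh libraries, with the other vitrified groups between 60.4 and 111 CPM.

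The call for NEK2 depended on single libraries. It passed without fresh library 2 (adjusted p = 0.0150), without helium 6.6 M library 2 (0.0386) and without 3 nitrogen libraries (5.6 M library 3 and 6.6 M libraries 1 and 3). It did not pass without helium 5.6 M library 3, 4 or 5 (adjusted p = 0.159, 0.155 and 0.139), fresh library 1 or 3 (0.132 and 0.0824), or helium 6.6 M library 1 or 3 (0.0545 and 0.0607). Nor did it pass without nitrogen 5.6 M library 1 or 2 (0.0623 and 0.0539) or nitrogen 6.6 M library 2 (0.0628). The log2 fold change stayed between 0.86 and 1.12 when each of the 15 libraries was left out. Calls over all genes moved as well. In the fits in which NEK2 passed, 0.403 to 5.58% of all genes were called, and in the others 0.0118 to 0.201%.

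Depth moved with the coolant, so NEK2 was also set out by depth. Among the 8 libraries under 5000000 counts, it was at 53.1 ± 10.2 CPM (SD, n = 3) in fresh and 73.6 ± 9.63 CPM (SD, n = 5) in nitrogen. Among the 7 deeper ones, it was at 98.9 ± 17.1 CPM (SD, n = 6) in helium and 71.4 CPM in the single nitrogen library. No fresh library was deep and no helium library shallow, so those groups cannot be compared within a depth class. A fit with a depth class term rests on that single nitrogen library, and in it the log2 fold change of helium 5.6 M against fresh was 1.21 (SE 0.37, adjusted p = 0.309).

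**Figure D3:**
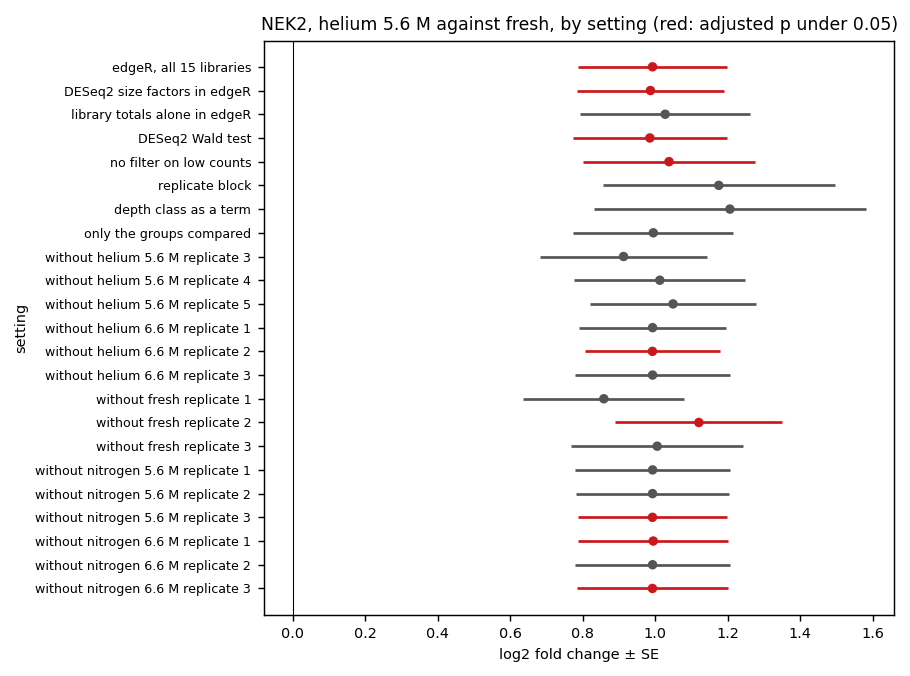
Log2 fold change of NEK2 in helium 5.6 M against fresh (x axis, with SE) under each setting of the fit on the y axis; red marks an adjusted p under 0.05. All values lie above 0, and the adjusted p passes in some settings and not in others.

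In the same comparison no other gene of the 50 passed. CEP164, a distal appendage protein, was at 84.1, 88.0 and 115 CPM in fresh and 64.7, 59.2 and 62.6 CPM in helium 5.6 M libraries, with a log2 fold change of -0.63 (SE 0.21, adjusted p = 0.172). These groups did not overlap. NEK5 had 0, 0 and 6 counts in the fresh libraries and 3.27 to 5.65 CPM in helium 5.6 M, and its log2 fold change of 2.08 (SE 0.70, adjusted p = 0.173) moved between 1.51 and 7.36 as single libraries were left out. At an unadjusted p under 0.05 there were 9 of the 50 (18%) against 14.1% of all genes. Without overlap between the groups there were 11, or 22%, against 18.1% of all genes. Higher were 5 of them (CEP85, NEK2, NEK5, TUBGCP3 and TUBGCP4) against 9.36% of all genes, and lower were 6 (CEP19, CEP83, CEP164, NEK4, NEK7 and PLK2) against 8.79%. Without fresh library 2, CEP78 and PCNT passed beside NEK2, which makes 3 of 50, where 5.58% of all genes passed in the same fit.

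In helium 6.6 M against fresh, none of the 50 genes was called, where 0.628% of all genes were called. The smallest p after that of NEK2 belonged to CEP78 (ENSBTAG00000020752), at 411, 240.2 and 507 CPM in fresh and 259.9, 262 and 251 CPM in helium 6.6 M libraries. Fresh library 2 lay below all 3 vitrified libraries there and the other fresh libraries above them, and the log2 fold change was -0.58 (SE 0.23, adjusted p = 0.228). CEP85, a centrosome protein known to antagonize NEK2, had a log2 fold change of 0.56 (SE 0.24, adjusted p = 0.273), or 0.33 without helium 6.6 M library 1. That of CEP78 was -0.33 without fresh library 3. Unadjusted, 8 genes (16%) had a p under 0.05 against 15.4% of all genes, and 5 showed no overlap against 16.3%. Without fresh library 2, 6 of the 50 genes passed (CEP120, CEP78, NEK2, PCM1, PCNT and PLK1), where 7.4% of all genes passed in the same fit. DESeq2 called 1 of the 50 here, NEK2 (adjusted p = 0.0162), and 3.02% of all genes. So did edgeR with no filter on low counts (adjusted p = 0.0371), which called 1.47% of all genes. Same-numbered libraries deviated together weakly in this pair of groups, and with the number as a block in a fit of both groups NEK2 had a log2 fold change of 0.77 (adjusted p = 0.158).

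Nitrogen 5.6 M against fresh gave no call among the 50 genes and 0.0118% of all genes. TUBGCP3, the core ring complex subunit, was at 23.4, 19.6 and 17.3 CPM in fresh and 28.4, 27.9 and 41.8 CPM in nitrogen 5.6 M libraries, which did not overlap. Its log2 fold change was 0.71 (SE 0.25, adjusted p = 0.637). Next in order of p were CEP89, a distal appendage protein, at -0.53 (SE 0.26, adjusted p = 0.723) and NIN, a subdistal appendage protein, at -0.43 (SE 0.23, adjusted p = 0.762). Without fresh library 2 the value of CEP89 was -0.28. DESeq2 called none of the 50 genes in either nitrogen group. An unadjusted p under 0.05 was found for 1 gene (2%) against 6.74% of all genes, and 3 genes showed no overlap against 9.26%.

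Nitrogen 6.6 M against fresh gave no call among the 50 genes and 0.0474% of all genes. CEP192 was at 272, 209.6 and 346 CPM in fresh and 200.3, 219 and 189.7 CPM in nitrogen 6.6 M libraries, with a log2 fold change of -0.44 (SE 0.18, adjusted p = 0.494). The ranges overlapped through fresh library 2, and the log2 fold change was -0.26 without fresh library 3. CEP41, a protein that supports tubulin modification in cilia, was low throughout, at 5.34, 2.01 and 3.37 CPM in fresh and 0, 2.03 and 1.40 CPM in nitrogen 6.6 M libraries. These ranges overlapped, and its log2 fold change was -1.44 (SE 0.65, adjusted p = 0.582). Unadjusted, 4 genes (8%) had a p under 0.05 against 8.23% of all genes, and 5 showed no overlap against 9.31%.

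**Figure D4:**
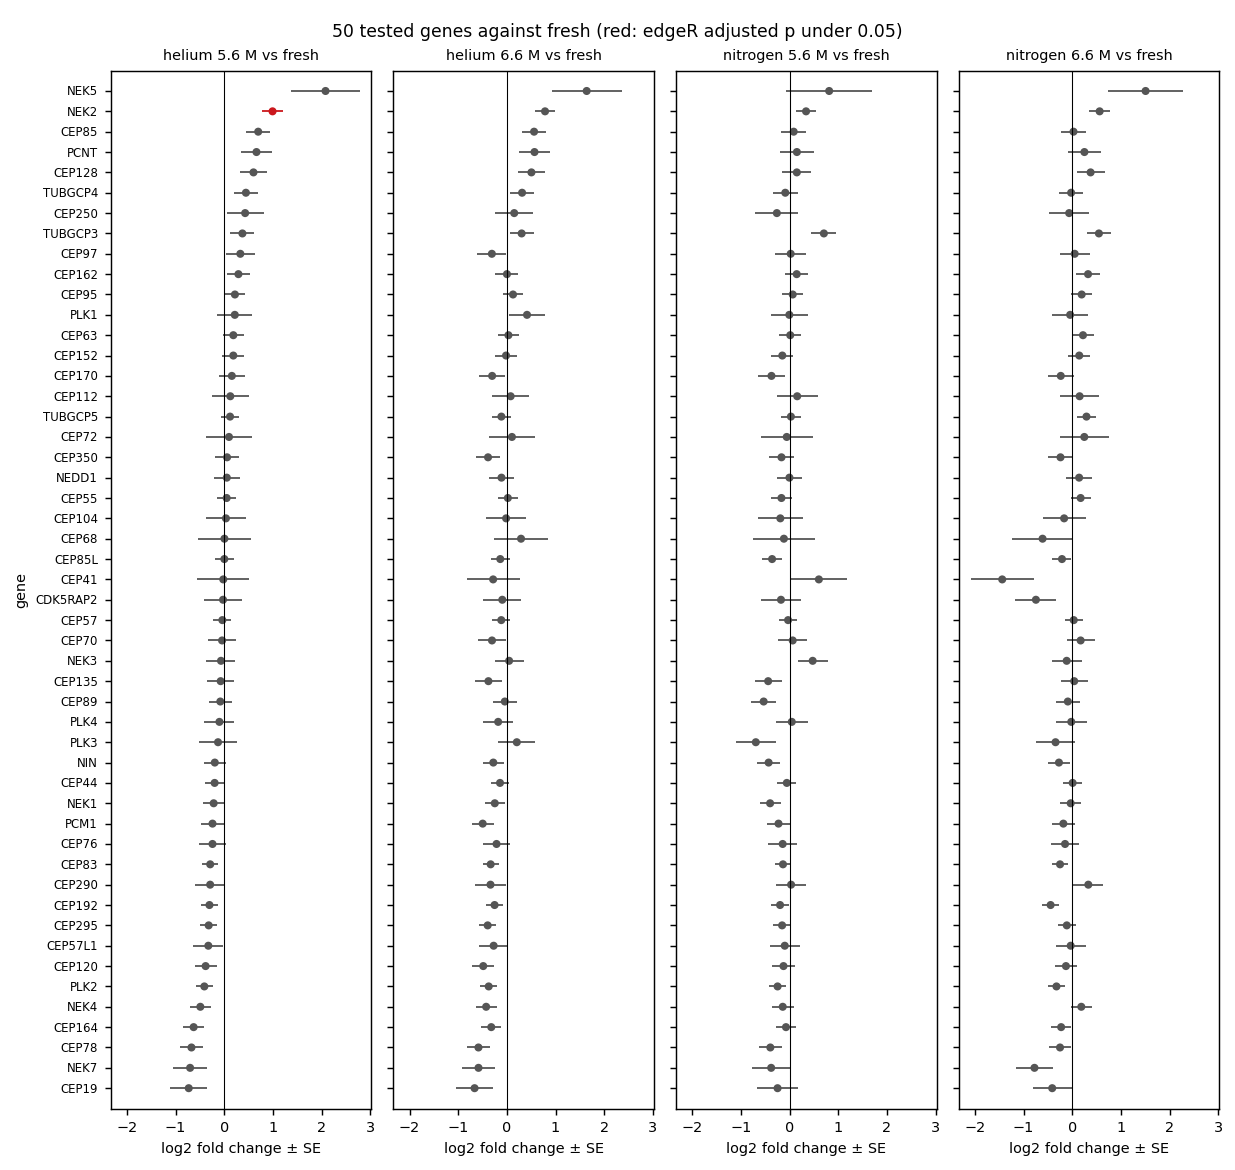
Log2 fold change with SE (x axis) of the 50 tested genes (y axis) in each vitrified group against fresh; red marks an adjusted p under 0.05 in edgeR. NEK2 in helium 5.6 M, at 0.99, is the single red point.

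With the 12 vitrified libraries taken against fresh, no gene of the 50 was called, where 0.509% of all genes were called. NEK2 had a log2 fold change of 0.67 (SE 0.17, adjusted p = 0.0903), CEP78 of -0.48 (SE 0.18, adjusted p = 0.242) and PLK2 of -0.34 (SE 0.13, adjusted p = 0.267). None of the 50 separated fresh from all vitrified libraries without overlap, against 2.03% of all genes, and 6 (12%) had an unadjusted p under 0.05 against 13.6%. Leaving out fresh library 2 gave 2 calls, CEP78 and NEK2 (adjusted p = 0.0392 for NEK2), where 3.14% of all genes passed. Leaving out helium 6.6 M library 2 gave 1, NEK2 (adjusted p = 0.0457), where 0.545% passed. DESeq2 called NEK2 (adjusted p = 0.0114) and 2.24% of all genes, and edgeR with no filter called NEK2 (adjusted p = 0.0499) and 0.871%. Without fresh library 3 the value of CEP78 was -0.24.

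The series also contrasts the coolants. Helium against nitrogen gave no call among the 50 genes, where 0.663% of all genes were called, and DESeq2 called none of the 50. CEP85 (ENSBTAG00000009579, chromosome 2 from 127433456 to 127463144) was at 74.8, 84.7 and 80.5 CPM in helium 5.6 M and 94.2, 50.2 and 73.5 CPM in helium 6.6 M libraries. It was at 55.5, 58.6 and 42.4 CPM in nitrogen 5.6 M and 43.7, 60.1 and 47.0 CPM in nitrogen 6.6 M libraries. The coolants overlapped through helium 6.6 M library 2, and the log2 fold change was 0.57 (SE 0.17, adjusted p = 0.115).

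NEK4, whose kinase acts in DNA damage responses and microtubule stability, was at 25.3 ± 2.69 CPM (SD, n = 6) in helium and had a log2 fold change of -0.48 (SE 0.15, adjusted p = 0.129) against nitrogen. NEK2 had one of 0.44 (SE 0.14, adjusted p = 0.147). PCNT alone of the 50 showed no overlap between coolants, higher in helium, against 3.36% of all genes. An unadjusted p under 0.05 was found for 6 genes (12%) against 16.0% of all genes. With no filter on low counts, 2 of 59 genes passed here, CEP85 and PLK3, where 2.11% of all genes passed.

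Cryoprotectant strength, 6.6 M against 5.6 M over both coolants, called none of the 50 genes and 0% of all genes, and DESeq2 called none of the 50 either. CEP41 had the smallest p of the 50, with a log2 fold change of -1.15 (SE 0.38, adjusted p = 0.9999), and was the only gene of them with an unadjusted p under 0.05, against 2.24% of all genes. None of the 50 separated the strengths without overlap, against 0.0711% of all genes. It was at 4.66, 8.04 and 2.90 CPM in nitrogen 5.6 M libraries and at 3.91, 3.63 and 2.61 CPM in helium 5.6 M ones. CEP97, part of the cap on centriole ends, was next at -0.31, then CEP350 at -0.26. NEK2 had a log2 fold change of 0.01 in this comparison.

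The coolant by concentration interaction asks if the effect of strength differs between coolants, and it too gave 0% called, with none of the 50 called by edgeR or DESeq2. CEP41 alone had an unadjusted p under 0.05 (log2 value 1.78, SE 0.75), against 2.1% of all genes, followed by CEP135 at -0.79 (SE 0.39) and TUBGCP5 at -0.50 (SE 0.27). The 50 genes had a median interaction of -0.20 on the log2 scale against 0.00 for all genes, with 37 of 50 below 0 against 50% of all genes. Helium 6.6 M library 2 was the lowest of its group in 35 of the 50 genes (70%) against 38.6% of all genes, and its cumulus marker sum was the highest, as given above. Without that library the median was -0.11 for the 50 genes and -0.02 for all genes, with 33 of the 50 and 53.5% of all genes below 0. Leaving out any other single library gave medians of -0.25 to -0.14 for the 50 genes. In those fits 31 to 37 of the 50 and 45.8 to 53.1% of all genes lay below 0. The part of the cumulus signal in these values was not tested.

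The 50 genes as a family are described by medians and counts with no test. Their median log2 fold change against fresh was -0.02 in helium 5.6 M and -0.13 in helium 6.6 M, where that of all genes was 0.00 and -0.02. The helium 6.6 M median was -0.01 without helium 6.6 M library 2 and -0.29 without fresh library 2, with all genes at -0.02 and 0.01. It was -0.11 in nitrogen 5.6 M and -0.03 in nitrogen 6.6 M, where that of all genes was -0.05 and -0.03. Without nitrogen 5.6 M library 3 the former was -0.02, and without fresh library 2 it was -0.17, with all genes at -0.04 and -0.01. Without nitrogen 6.6 M library 1 the latter was 0.06, and without fresh library 2 it was -0.10, with all genes at -0.05 and -0.0007. Log2 fold changes below 0 were found for 26 of the 50 in helium 5.6 M and 32 in helium 6.6 M, against 49.9% and 52.3% of all genes. They were found for 33 in nitrogen 5.6 M, 28 in nitrogen 6.6 M and 30 over all vitrified libraries, against 55.4%, 53.3% and 53.5%. For helium against nitrogen the median was -0.02 against 0.03 for all genes, with 27 of 50 below 0 against 46.6%. That median was 0.03 with 21 below 0 without helium 6.6 M library 2, and -0.07 with 30 below 0 without helium 6.6 M library 1. Of all genes, 47.1% and 47.8% lay below 0 in those fits. For 6.6 M against 5.6 M, 26 of 50 lay below 0 against 48.8% of all genes. Without helium 6.6 M library 2, 17 of 50 lay below 0 against 49.4% of all genes. Within groups the median coefficient of variation of the 50 genes was 28.4% in fresh libraries, against 29.8% for all genes. It was 13.5 to 18.2% in the vitrified groups, against 14.1 to 22.2% for all genes. Fresh library 2 was the lowest of its group in 24 of the 50 genes (48%) against 34.9% of all genes.

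NEK10, a kinase of DNA damage checkpoints, was left untested by the filter. It had 0 counts in all 3 fresh libraries, which allows up to 0.494 CPM over the group, and 76 counts in the vitrified libraries, or 1.23 CPM when pooled. Helium libraries held 0.490 to 2.28 CPM, and nitrogen 6.6 M library 1 held none. TUBGCP6 and CEP170B were near absent, CEP170B with 3 counts in 1 library.

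Other genes of the same processes were read from 4 lists. Of 9 tested gamma-tubulin, MOZART and augmin genes and 22 for centriole assembly, none was called in any comparison. Of all genes, 0 to 0.663% were called in these comparisons. Of 20 tested satellite and spindle pole genes, 1 was called in helium 5.6 M, against 0.474% of all genes. The same gene was called over all vitrified libraries, where 0.509% of all genes were called. It was NUSAP1, a spindle microtubule-bundling protein, which rose in helium 5.6 M (955 ± 116 to 1809.8 ± 305 CPM, SD, n = 3 each; log2 fold change 0.92, SE 0.20, edgeR adjusted p = 0.0465) and over all vitrified libraries (0.85, SE 0.17, adjusted p = 0.0228). The first of these calls passed when 2 of the 15 libraries, fresh library 2 and helium 6.6 M library 2, were each left out, and was lost without any of the other 13 (adjusted p up to 0.185). The second was lost without helium 6.6 M library 3, fresh library 1 or fresh library 3 (adjusted p = 0.0512, 0.115 and 0.0530). With the replicate block the adjusted p of NUSAP1 was 0.940 in helium 5.6 M and 0.117 over all vitrified libraries.

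Of 22 tested partners of PLK1, 1 was called in helium 6.6 M, against 0.628% of all genes. CCNB2, a mitotic cyclin that activates CDK1, rose there (293 ± 43.4 to 536 ± 55.4 CPM, SD, n = 3 each; log2 fold change 0.87, SE 0.17, edgeR adjusted p = 0.0301). With the replicate block its adjusted p was 0.0844 in the fit of all groups and 0.0763 in a fit of both groups. Its call was lost without helium 5.6 M library 4 (0.0517), helium 6.6 M library 1, 2 or 3 (0.0676, 0.106 and 0.0872) or fresh library 1 (0.155). Over all vitrified libraries CCNB2 rose by 0.64 (SE 0.14, edgeR adjusted p = 0.0492), where 0.509% of all genes were called. This call was lost without any of 13 libraries and kept without fresh library 2 or nitrogen 6.6 M library 1. No other gene of the 4 lists passed in any of the 8 comparisons.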

How the data were processed

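Whole-number counts per gene and FPKM values were deposited side by side in 1 table of 15 libraries, per the file headers. HISAT2 2.0.4, StringTie 1.3.0 and the build UMD3.1 are named in the submitters' processing notes, with no role or order given. FPKM served for levels across genes. Counts were tested in R 4.3.3 with edgeR 4.0.16: filterByExpr, TMM scaling and 1 robust quasi-likelihood fit of 5 groups without a replicate block, with 8 contrasts and a threshold of 0.05. The scripts were tested on simulated data. DESeq2 1.42.0 and other settings were alternatives.

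Members and lists were chosen with earlier results of these data known. Named by rule were members past the threshold, all tested PLK, NEK and TUBGCP genes, and the 10 others of highest FPKM. The 3 smallest p per comparison and list genes past the threshold were named as well. Outside that rule, values were also given for CEP290, PCNT, PCM1, CDK5RAP2, CEP250, TUBGCP2, TUBGCP6, NEK6, NEK9, NEK10 and NEK11. Same-numbered libraries of helium 6.6 M and fresh deviated together weakly (correlations 0.147, 0.306 and 0.227). The labels' numbers were used to pair these groups only in alternative fits with the block. No label states such a pairing, and differently numbered libraries were not correlated for comparison, so these values do not establish it. Same-numbered nitrogen and fresh libraries had correlations of both signs, -0.320 to 0.104 at 5.6 M and -0.198 to 0.431 at 6.6 M. Helium 5.6 M shares only the number 3 with fresh (0.272). Intervals and limits for 0 counts (3 counts) cover counting error only.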

Additional observations from a re-analysis of the deposited data

How the results depend on the processing

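In helium 5.6 M against fresh, the count of 1 called gene became 0 with the replicate block, with depth class as a term, with only the groups compared and with library totals alone (NEK2 adjusted p = 0.940, 0.309, 0.173 and 0.0662), and was 0 to 3 as each library was left out. In helium 6.6 M against fresh the count of 0 became 1 with DESeq2 and 1 with no filter (3.02 and 1.47% of all genes). It was 0 to 6 by library, where 0.0355 to 7.4% of all genes were called. Over all vitrified libraries the count became 1 with DESeq2 and 1 with no filter (2.24 and 0.871% of all genes). It was 0 to 2 by library, where 0.0355 to 3.14% of all genes were called. In helium against nitrogen the count became 2 with no filter, where 2.11% of all genes were called. The replicate block changed no other count of called genes among the 50. The last scaling, the fit of helium 6.6 M and fresh alone with the block and the reruns without single libraries for medians were chosen after seeing the data. Under library totals alone, 19 of 50 genes lay below 0 in helium against nitrogen instead of 27. The median of all genes moved too, from 0.03 to 0.12, beside -0.02 to 0.07 for the 50 genes. None of the 28 log2 fold changes followed reversed under any alternative run for it. Of their 615 values of single genes under alternatives, 544 kept their direction and side of the threshold, 10 passed newly and 61 no longer passed. The 61 all belong to the calls of the main fit, which alone could be lost. These were NEK2 and NUSAP1 in helium 5.6 M, CCNB2 in helium 6.6 M, and NUSAP1 and CCNB2 over all vitrified libraries. Most of the 544 passed neither in the main fit nor under the alternative, so they do not show the calls to be stable. Beyond the losses given in the report, NUSAP1 in helium 5.6 M no longer passed with DESeq2 size factors, a depth class term or only the groups compared (adjusted p = 0.0520, 0.330 and 0.254), nor over all vitrified libraries with the depth class term (0.271). CCNB2 no longer passed in helium 6.6 M with the depth class term or only the groups compared (0.399 and 0.317), nor over all vitrified libraries with library totals, the block or the depth class term (0.0809, 0.209 and 0.328). By low counts, 10 of the 60 genes were not tested.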
